A study of Homo sapiens with 6 samples.

Results

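Aminoacyl-tRNA synthetases are the enzymes that join each amino acid to its transfer RNA, the step on which the accuracy of translation rests. Human cells keep a cytosolic set and a mitochondrial set, nearly all encoded by separate nuclear genes, and the mitochondrial enzymes are made in the cytosol and imported. Many cytosolic synthetase genes are known targets of ATF4, a transcription factor that is translated when amino acids run short and that also drives amino acid synthesis and uptake genes. The genes were chosen by name: protein-coding genes whose current symbol is a single letter followed by ARS1 or ARS2, with EPRS1, FARSA and FARSB added. This gave 37 of the 30727 genes in the files, 20 cytosolic and 17 mitochondrial, and all 37 passed the filter on low counts. GARS1 and KARS1, counted here as cytosolic, also encode the mitochondrial glycine and lysine enzymes, and QARS1 has no mitochondrial counterpart.

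The study sequenced polyadenylated RNA from PANC-1, an established human cell line derived from a pancreatic ductal carcinoma, in 3 libraries given siRNA labelled as SUV420H2 knockdown and 3 labelled as control. SUV420H2, now named KMT5C, methylates lysine 20 of histone H4. The sources used here do not give the siRNA sequences, the kind of control siRNA, the time after transfection or whether each library is a culture of its own. The spread between libraries, on which the p-values rest, may therefore be technical. The comparison asks which genes differ between PANC-1 cells given the knockdown siRNA and control cells.

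The libraries held 20863594 to 38022772 counted reads. KMT5C had 9.55, 7.23 and 12.7 CPM (counted reads scaled to library size, with TMM factors) in the controls and 6.03, 6.11 and 5.86 CPM in the knockdown libraries. All knockdown values lay under all control values, with a log2 fold change of −0.72 (SE 0.163, edgeR adjusted p = 0.00227). Leaving out control replicate 3, the highest control, gave −0.50. Of the duct carcinoma keratins, KRT8, KRT18 and KRT7 rose and KRT19 fell (−0.32), and the 4 summed to 2414 to 2954 CPM in the controls and 5590 to 5828 in the knockdown. The extraction text in the labels speaks of brain cells, and 3 astrocyte markers summed to at most 0.331 CPM in any library, with AQP4 at 0 reads. The 5 microglia and leukocyte markers reached at most 0.847 CPM and the 3 fibroblast markers at most 0.333 CPM. The 3 neuron markers summed to 7.75 to 9.35 CPM in the controls and 2.65 to 3.09 in the knockdown, carried by SYT1 with means of 8.07 and 1.78 CPM. SNAP25 rose, from 0.384 to 0.735 CPM, and RBFOX3 stood at 0.267 and 0.284 CPM. The part of these markers in the results was not tested.

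Promoter sequence gives a view of the family that the choice by name did not use. The letters TGATGNAA, the core of the element bound by ATF4 with C/EBP factors, were searched on both strands (TTNCATCA on the other) in the RefSeq promoter entries (GRCh38.p14), each of 300 bases from 250 before an annotated transcript start to 50 after. Some genes have entries for more than 1 start, and a match in any entry was counted. No other motif was searched. A promoter was at hand for 16 of the 20 cytosolic and 14 of the 17 mitochondrial genes. The letters stood in 7 cytosolic promoters (43.8%) and 1 mitochondrial promoter (7.14%), against 3.60% of the promoters of 15843 protein-coding genes. The 8 matches are shown because they mark the genes whose promoter entry holds these letters. Each line gives 30 bases, 5′ to 3′ on the strand of the gene, with the match in capitals.
AARS1: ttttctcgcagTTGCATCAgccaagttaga
CARS1: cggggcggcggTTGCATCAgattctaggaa
GARS1: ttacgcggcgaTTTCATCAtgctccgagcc
IARS1: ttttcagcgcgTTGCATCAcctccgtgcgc
MARS1: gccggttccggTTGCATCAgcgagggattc
NARS1: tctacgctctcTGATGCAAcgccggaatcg
TARS1: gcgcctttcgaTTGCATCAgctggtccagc
YARS2: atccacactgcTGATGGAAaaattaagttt

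In 6 of the 7 cytosolic matches the 8 letters were TTGCATCA or their complement, and GARS1 differed from them at a base that the search leaves free. The windows lie at chr16:70289675-70289704 (minus strand) for AARS1, chr11:3057407-3057436 (minus) for CARS1, chr7:30594834-30594863 (plus) for GARS1, chr9:92293692-92293721 (minus) for IARS1, chr12:57488053-57488082 (plus) for MARS1, chr18:57621804-57621833 (minus) for NARS1, chr5:33440956-33440985 (plus) for TARS1 and chr12:32756076-32756105 (minus) for YARS2. For CARS1, MARS1, TARS1, IARS1, NARS1 and GARS1 the match began within 33 bases of the annotated transcript start of its entry. For AARS1 and YARS2 it began 187 and 197 bases before the transcript start. GARS1 and TARS1 have 2 entries each, and their matches lie at the downstream start, not at the first base of the gene. A match is a description of letters and shows no binding.

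Most cytosolic synthetase transcripts were lower in the knockdown cells, by modest amounts, and the mitochondrial set was lower less uniformly. In edgeR's quasi-likelihood test 17 of the 20 cytosolic genes fell, 2 rose (RARS1 and QARS1) and HARS1 did not pass. Across all 15190 genes tested, 34.2% fell and 33.1% rose, so 67.3% passed in either direction. Of the 17 mitochondrial genes, 10 fell, 2 rose (RARS2 and SARS2) and 5 did not pass, among them NARS2, PARS2, TARS2 and VARS2. The median log2 fold change was −0.35 over the cytosolic genes and −0.14 over the mitochondrial genes, against −0.01 over all genes tested. No member changed by 2-fold, and the members ran from −0.80 to 0.33. Of all genes tested, 8.01% passed with a rise of 2-fold or more and 6.01% passed with a fall of 2-fold or more. The CPM of the groups did not overlap for 19 cytosolic and 11 mitochondrial genes, against 71.3% of all genes. Tested against a 1.5-fold change, WARS1 was the only member that passed, against 9.16% of all genes downward and 10.6% upward. Without control replicate 3 the counts were 17 lower and 2 higher for the cytosolic genes and 11 lower and 3 higher for the mitochondrial genes. CPM is a share of the counted reads, so fewer cells of a kind and less RNA per cell cannot be told apart.

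**Figure D1:**
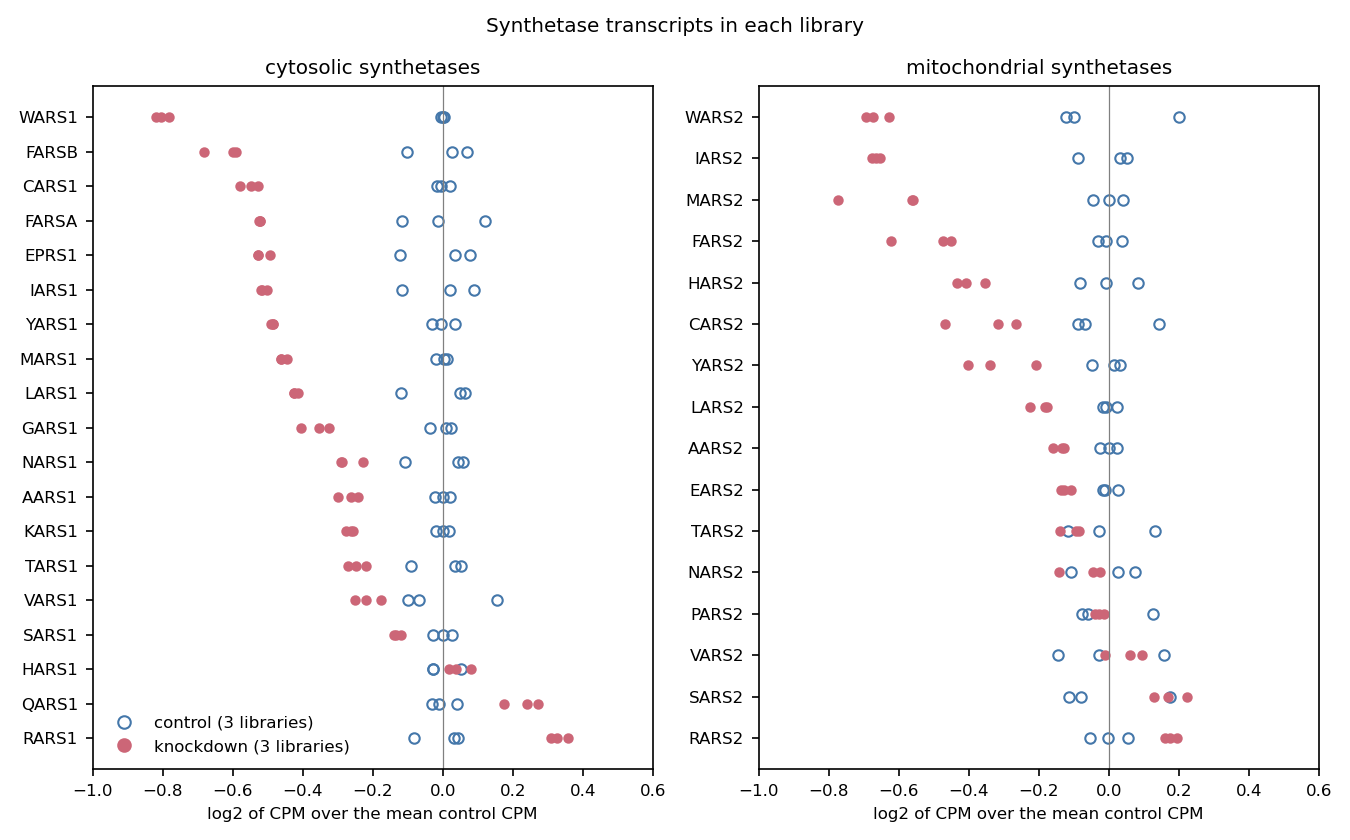
Each row is a synthetase gene and each point a library, plotted as the log2 of its CPM over the mean control CPM of that gene (open, 3 controls; filled, 3 knockdown libraries). The knockdown points lie under all controls for 16 of the 19 cytosolic and 10 of the 16 mitochondrial genes drawn, and above them for RARS1, QARS1 and RARS2.

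The summed level of each compartment was lower in every knockdown library. Levels are given as the deposited RPKM, the reads of a gene scaled to its length and to library size, which the authors had adjusted with size factors. The 20 cytosolic genes summed to 1907, 1927 and 1819 RPKM in the controls and to 1503, 1512 and 1522 in the knockdown libraries. The knockdown mean was 80.3% of the control mean, and the groups did not overlap. The 17 mitochondrial genes summed to 305, 303 and 299 RPKM in the controls and to 275, 268 and 272 in the knockdown, or 89.9% of the control mean. That difference rests on IARS2: without it the mitochondrial sum was 225 ± 2.22 RPKM in the controls and 223 ± 3.59 in the knockdown, or 98.8% of the control mean. The cytosolic sum without its highest gene, GARS1, was 80.5% of the control mean. The cytosolic sum was 6.23 ± 0.137 times the mitochondrial sum in the controls and 5.57 ± 0.101 times in the knockdown (SD, n = 3 each). Without IARS2 these ratios were 8.37 ± 0.325 and 6.79 ± 0.133.

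Levels per length can be compared between genes. GARS1, the glycine enzyme, was highest at 290 ± 8.68 RPKM in the controls and 229 ± 6.57 in the knockdown (SD, n = 3 each). MARS1, the methionine enzyme, followed at 187 ± 1.56 and 138 ± 1.03 RPKM. TARS1, YARS1, NARS1, EPRS1, AARS1 and CARS1 came next, with control means of 116 to 134 RPKM. The control values of each overlapped those of the next in this order. Among the mitochondrial genes IARS2 stood highest at 77.0 ± 4.59 RPKM in the controls, above 10 of the cytosolic genes, followed by SARS2 at 48.9 ± 5.04. HARS1 was the lowest cytosolic gene at 22.6 ± 0.809 RPKM. The lowest of all were PARS2 (3.13 ± 0.261), FARS2 (2.81 ± 0.0486) and WARS2 (2.79 ± 0.370), and the control values of WARS2 spanned those of FARS2. These low genes rested on 152 to 290 reads per library.

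**Figure D2:**
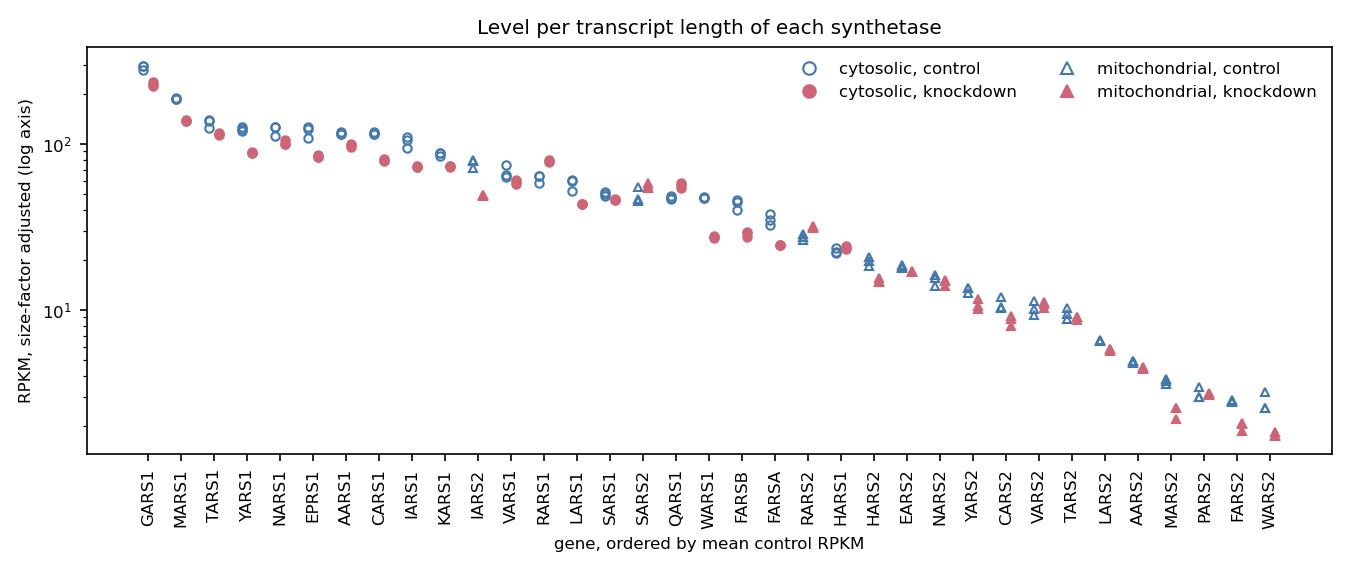
Deposited RPKM of 35 synthetases on a log axis, ordered by the control mean (circles, cytosolic; triangles, mitochondrial; open, 3 controls; filled, 3 knockdown libraries). Cytosolic genes fill the upper end down to HARS1 at 22.6 RPKM in the controls, with the mitochondrial genes IARS2, SARS2 and RARS2 among them.

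WARS1, the tryptophan enzyme of the cytosol, which is also known to be induced by interferon gamma, fell most. It had 155.9, 155.0 and 155.9 CPM in the controls and 90.5, 89.1 and 88.2 CPM in the knockdown libraries (gene ID 7453; GRCh38 chromosome 14, 100333790 to 100376327). The values within a group lay close together and the groups were far apart. The knockdown mean of 89.3 ± 1.17 CPM was 57.4% of the control mean of 156 ± 0.520 (SD, n = 3 each), and WARS1 fell by 0.80 on the log2 scale (SE 0.0398, edgeR adjusted p = 2.24e-08). It also passed the test against a 1.5-fold change (glmTreat adjusted p = 0.000191, the highest over all alternatives).

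The phenylalanine enzyme of the cytosol is built from 2 different subunits, and both transcripts fell. FARSB, the beta subunit, had 126, 130 and 116 CPM in the controls and 77.2, 81.9 and 82.3 in the knockdown. FARSB fell by 0.62 on the log2 scale (SE 0.0539, edgeR adjusted p = 1.60e-06). FARSA, the catalytic alpha subunit, had 66.2, 61.7 and 72.7 CPM in the controls against 46.6, 46.5 and 46.6 in the knockdown. FARSA fell by 0.52 (SE 0.0612, edgeR adjusted p = 1.81e-05). For both subunits every knockdown value lay under every control value. Neither gene is in the list of ATF4 targets used here, and neither promoter held the searched letters.

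CARS1, the cysteine enzyme, had 348, 358 and 351 CPM in the controls and 245, 236 and 241 in the knockdown. The log2 difference was −0.55 (SE 0.0385, edgeR adjusted p = 2.94e-07). EPRS1 encodes a single protein that charges both glutamate and proline. It had 632, 650 and 567 CPM in the controls and 428, 428 and 438 in the knockdown, with control replicate 3 the lowest control. EPRS1 fell by 0.52 on the log2 scale (SE 0.0519, edgeR adjusted p = 5.50e-06). Control replicate 3 was the lowest of the 3 controls for 12 of the 20 cytosolic genes.

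The other 12 cytosolic genes that fell ran from −0.51 to −0.13 on the log2 scale. Near the top of this range were IARS1 for isoleucine (−0.51, SE 0.0518), YARS1 for tyrosine (−0.49, SE 0.0382), MARS1 (−0.46, SE 0.0369) and LARS1, the leucine enzyme that also serves as a leucine sensor for mTORC1 (−0.42, SE 0.0512). GARS1 (−0.36) was in the middle. NARS1 for asparagine (−0.27), AARS1 for alanine (−0.27), KARS1 for lysine (−0.26), TARS1 for threonine (−0.25) and VARS1 for valine (−0.22) fell less, and VARS1 stood at −0.13 without control replicate 3. SARS1, the serine enzyme, fell least at −0.13 (SE 0.0382, edgeR adjusted p = 0.0108). That call was lost without control replicate 1 (adjusted p = 0.0771) and without knockdown replicate 1 (0.0563), and its range over all alternatives was 4.30e-05 to 1.

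RARS1, the arginine enzyme, and QARS1, the glutamine enzyme, were the cytosolic genes that rose. RARS1 had 155, 156 and 143 CPM in the controls and 187, 190 and 194 in the knockdown. It rose by 0.33 on the log2 scale (SE 0.0457, edgeR adjusted p = 6.57e-05). QARS1 had 136, 137 and 142 CPM in the controls and 167, 164 and 156 in the knockdown. The rise was 0.23 (SE 0.0439, edgeR adjusted p = 0.000763). In both genes the lowest knockdown value lay above the highest control value. Both enzymes belong to the multisynthetase complex, in which their known positions adjoin on the scaffold protein AIMP1, and neither is in the list of ATF4 targets.

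The multisynthetase complex holds 8 synthetase genes, of which 6 fell and 2 rose, with a median of −0.38. The 12 cytosolic genes outside it comprised 11 that fell and HARS1, with a median of −0.31. Its 3 scaffold genes did not pass: AIMP1 stood at −0.06 (edgeR adjusted p = 0.366), AIMP2 at −0.09 (edgeR adjusted p = 0.102) and EEF1E1 at −0.01 (edgeR adjusted p = 0.878). Without control replicate 3, AIMP1 (−0.10, edgeR adjusted p = 0.0335) and AIMP2 (−0.08, edgeR adjusted p = 0.0364) passed as lower. All 13 cytosolic genes in a list of known ATF4 targets, compiled from general knowledge, fell, from −0.80 to −0.13 with a median of −0.42. Of the other 7 cytosolic genes, 4 fell, 2 rose and HARS1 did not pass, with a median of −0.26. The 7 cytosolic genes whose promoter held the letters shown above all fell, with a median of −0.36. Of the 9 with a promoter but no match, 6 fell, 2 rose and 1 did not pass, with a median of −0.26, and WARS1 and FARSB were among them. By the structural class of the catalytic domain, 7 of 9 class I and 9 of 10 class II genes fell among the cytosolic enzymes, EPRS1 left aside because its parts belong to both classes. Beside these counts, 17 of the 20 cytosolic genes and 34.2% of all genes tested fell, and 2 and 33.1% rose. None of these splits was tested.

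Among the mitochondrial genes the falls were led by WARS2, IARS2, MARS2 and FARS2. WARS2, for tryptophan, had 11.4, 9.11 and 9.25 CPM in the controls and 6.14, 6.22 and 6.42 in the knockdown. WARS2 fell by 0.67 on the log2 scale (SE 0.102, edgeR adjusted p = 0.000147). IARS2, for isoleucine, had 289, 292 and 265 CPM in the controls and 179, 177 and 178 in the knockdown. IARS2 also fell by 0.67 (SE 0.0459, edgeR adjusted p = 2.65e-07). For both genes the groups were well apart, IARS2 with 4797 to 7226 reads in a library and WARS2 with 169 to 285.

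MARS2, for methionine, had 12.2, 11.9 and 11.5 CPM in the controls and 8.04, 8.03 and 6.92 in the knockdown. MARS2 fell by 0.63 on the log2 scale (SE 0.0856, edgeR adjusted p = 6.24e-05). FARS2 is the phenylalanine enzyme of mitochondria, a single chain unlike its cytosolic counterpart. It had 8.59, 8.72 and 9.01 CPM in the controls and 6.42, 5.71 and 6.32 in the knockdown. FARS2 fell by 0.51 (SE 0.0858, edgeR adjusted p = 0.000305). In both genes every knockdown value lay under the controls. FARS2 overlaps LYRM4 over 11017 bases, and LYRM4 fell by 0.18 on the log2 scale. CARS2 (−0.35), YARS2 (−0.31) and LARS2 (−0.19) fell as well.

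The falls of AARS2 (−0.14, SE 0.0577, edgeR adjusted p = 0.0498) and EARS2 (−0.12, SE 0.0427, edgeR adjusted p = 0.0245) lay near the threshold. AARS2 kept its call only in limma-voom and without control replicate 3, with adjusted p of 0.0425 to 1 over all alternatives. EARS2 lost its call in DESeq2's Wald test (adjusted p = 0.0886), under total-count scaling (0.0696), with no low-count filter (0.0602), against a 1.5-fold change and without each library except control replicate 3 (range 0.00200 to 1). EARS2 overlaps its neighbour GGA2 over 3606 bases, and GGA2 rose by 0.97 on the log2 scale. Reads from overlapping genes cannot be told apart here, and the strand setting of the counting is not stated.

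RARS2 rose from 58.3, 60.7 and 56.3 CPM in the controls to 65.9, 65.3 and 66.9 in the knockdown, with no overlap between groups. It rose by 0.18 on the log2 scale (SE 0.0477, edgeR adjusted p = 0.00652), so the transcripts of both arginine enzymes were higher. SARS2, for serine, had 102, 99.9 and 122 CPM in the controls and 126, 122 and 118 in the knockdown. Control replicate 3 lay among the knockdown values, and the log2 fold change of 0.17 (SE 0.0696, edgeR adjusted p = 0.0446) lost its call without any single library other than that control. Without control replicate 3 it was 0.27. Of the genes that did not pass, TARS2 stood at −0.11, NARS2 at −0.07, PARS2 at −0.03 and VARS2 at 0.05. Leaving out control replicate 3 moved NARS2 to −0.12 (edgeR adjusted p = 0.0297) and VARS2 to 0.13 (edgeR adjusted p = 0.0249).

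The histidine enzymes are encoded head to head, and their transcripts behaved differently. HARS1, cytosolic, lies on the minus strand of chromosome 5 (140673905 to 140691370), and HARS2, mitochondrial, on the plus strand (140691455 to 140699305). Their annotated starts are parted by the 84 bases at chr5:140691371-140691454 (GRCh38.p14, plus strand, shown because both genes start from it).
HARS1 to HARS2: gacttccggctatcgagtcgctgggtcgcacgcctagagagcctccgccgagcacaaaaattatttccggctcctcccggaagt

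This stretch is 59.5% G and C. HARS1 had 99.0, 93.8 and 93.9 CPM in the controls and 96.8, 98.1 and 101.0 in the knockdown, which overlap (0.05, SE 0.0445, edgeR adjusted p = 0.390). HARS2 had 58.7, 55.2 and 52.4 CPM in the controls and 43.4, 41.0 and 41.8 in the knockdown, with no overlap (−0.40, SE 0.0568, edgeR adjusted p = 8.97e-05). The difference between them, HARS2 minus HARS1 in log2(CPM + 1), went from −0.78 ± 0.0462 in the controls to −1.21 ± 0.0624 in the knockdown (SD, n = 3 each). An exact two-sided permutation test gave p = 0.1 for this change of −0.43, the smallest p that 3 against 3 allows.

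The same difference was taken for each amino acid that has separate enzymes, in 18 pairs of a mitochondrial with a cytosolic gene, with EPRS1 paired with both EARS2 and PARS2, and FARS2 paired with both subunits of the cytosolic enzyme. In 14 of the 18 pairs the mitochondrial gene changed less downward, or more upward, than its cytosolic partner, and the median shift was 0.19. The groups did not overlap for 9 pairs in this direction and for 3 in the other, and they overlapped in 6. The permutation p was 0.1 for these 12 pairs and cannot be lower, so no pair can pass a threshold of 0.05.

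Among the pairs that shifted toward the mitochondrial gene were PARS2 against EPRS1 (proline; 0.49, SE 0.0722) and EARS2 against EPRS1 (glutamate; 0.39, SE 0.0583). PARS2 minus EPRS1 was −6.07, −6.29 and −6.08 in the controls and −5.64, −5.65 and −5.66 in the knockdown, with no overlap. In the other direction stood HARS2 against HARS1, RARS2 against RARS1 (arginine; −0.16, SE 0.0209) and IARS2 against IARS1 (isoleucine; −0.15, SE 0.0204). The tryptophan pair fell in both compartments, with a shift of 0.21 (SE 0.0968) and overlapping groups. The fitted log2 fold changes, without the added 1, were −0.67 for WARS2 and −0.80 for WARS1, which lie closer together than this shift.

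**Figure D3:**
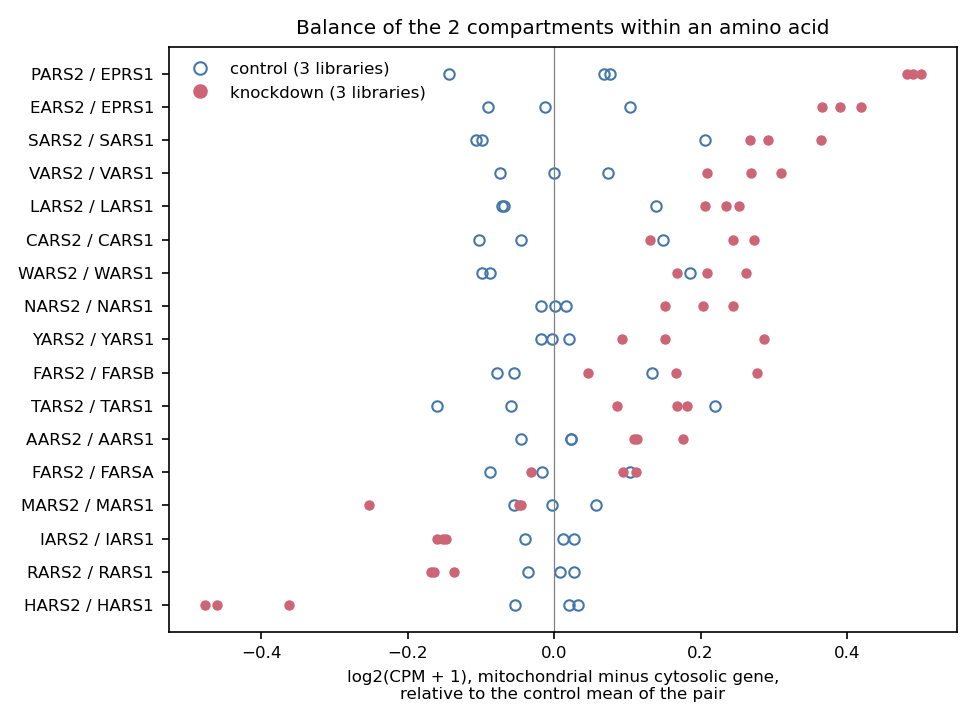
Each row is a pair of genes for the same amino acid, and each point a library: log2(CPM + 1) of the mitochondrial gene minus that of the cytosolic gene, relative to the control mean of the pair (open, 3 controls; filled, 3 knockdown libraries). Points to the right show a balance shifted toward the mitochondrial gene, as in 13 of the 17 pairs drawn by their means.

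Of 21 tested genes that work beside the synthetases, 10 fell, 3 rose and 8 did not pass, with a median of −0.14. Of all genes tested, 34.2% fell and 33.1% rose. XPOT, the exportin that carries tRNA out of the nucleus, had 294 ± 21.6 CPM in the controls and 172 ± 0.414 in the knockdown (SD, n = 3 each) and fell by 0.77 on the log2 scale (SE 0.0533, edgeR adjusted p = 2.76e-07). DTD2 (−0.83, SE 0.0824) and DTD1 (−0.60, SE 0.0751), which remove wrongly attached amino acids from tRNA, fell, and so did TRNT1, which adds the CCA end that synthetases charge (−0.63, SE 0.0730). Of 6 elongation factor genes, 4 fell: EEF1D (−0.38), EEF1A1 (−0.26) and the mitochondrial factors TUFM (−0.26) and TSFM (−0.22). EEF1A1 stood at 28.5 CPM in the controls; it has many processed pseudogenes, and only uniquely aligned reads were counted, so its value is uncertain. The genes that rose were PSTK, a kinase of selenocysteine synthesis (0.45, SE 0.0940), EEF1G (0.21, SE 0.0757) and GATC, a subunit of the enzyme that makes mitochondrial glutaminyl-tRNA (0.18, SE 0.0436). EEF1G lost its call without control replicate 1 or 2 or knockdown replicate 2 or 3 (edgeR adjusted p of 0.0603 to 0.136). TSFM lost its call without control replicate 1 (0.0761) or knockdown replicate 2 (0.0790). EEF1A1 lost its call without control replicate 2 (edgeR adjusted p = 0.0627) or knockdown replicate 2 (0.0763).

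Of 39 amino acid response genes tested, 20 fell, 14 rose and 5 did not pass, and the median was −0.18, against 34.2% lower and 33.1% higher among all genes. The counts by role below rest on few genes each, and no role was tested against the others. ATF4 itself had 194, 190 and 191 CPM in the controls and 114, 113 and 110 in the knockdown, a log2 fold change of −0.77 (SE 0.0397, edgeR adjusted p = 2.94e-08). ATF4 is controlled mainly at translation, which these data do not measure. Among the other regulators CEBPG, a dimer partner of ATF4, fell from 206 ± 1.56 to 103 ± 1.27 CPM (SD, n = 3 each; edgeR adjusted p = 4.56e-09). ATF3, a stress-induced factor, rose to 64.8 ± 1.42 CPM, by 1.77 on the log2 scale (SE 0.0540).

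Of 10 synthesis enzymes tested, 9 fell and SHMT2 did not pass, with a median of −0.77. MTHFD2, of mitochondrial folate metabolism, fell from 430 ± 18.1 to 217 ± 5.45 CPM (−0.98, SE 0.0446), and ALDH18A1, of proline synthesis, fell by 0.91 on the log2 scale (SE 0.0430). ASNS, which makes asparagine, fell from 380 ± 19.5 to 217 ± 7.38 CPM (−0.81, SE 0.0485). The serine synthesis enzymes PHGDH (−0.80), PSPH (−0.75) and PSAT1 (−0.70) fell too. CBS was listed with at most 2 reads in a library and was not tested.

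The other roles held genes that rose and genes that fell. Of 8 amino acid transporters, 4 rose and 3 fell, with SLC38A2 at 0.74 (SE 0.0556) and SLC6A9 at −1.16 (SE 0.0757). Of 7 other targets, 4 rose and 2 fell: PPP1R15A, which helps to end the block on translation, rose by 1.06 (SE 0.0626) and SESN2, a leucine sensor, by 0.89 (SE 0.0546), while DDIT4, an inhibitor of mTORC1, fell by 1.22 (SE 0.0541). The sensing genes went both ways: EIF2AK4, the kinase that detects uncharged tRNA, fell (−0.54, SE 0.0509), and EIF2AK3, the kinase of endoplasmic reticulum stress, rose (0.74, SE 0.0528).

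**Figure D4:**
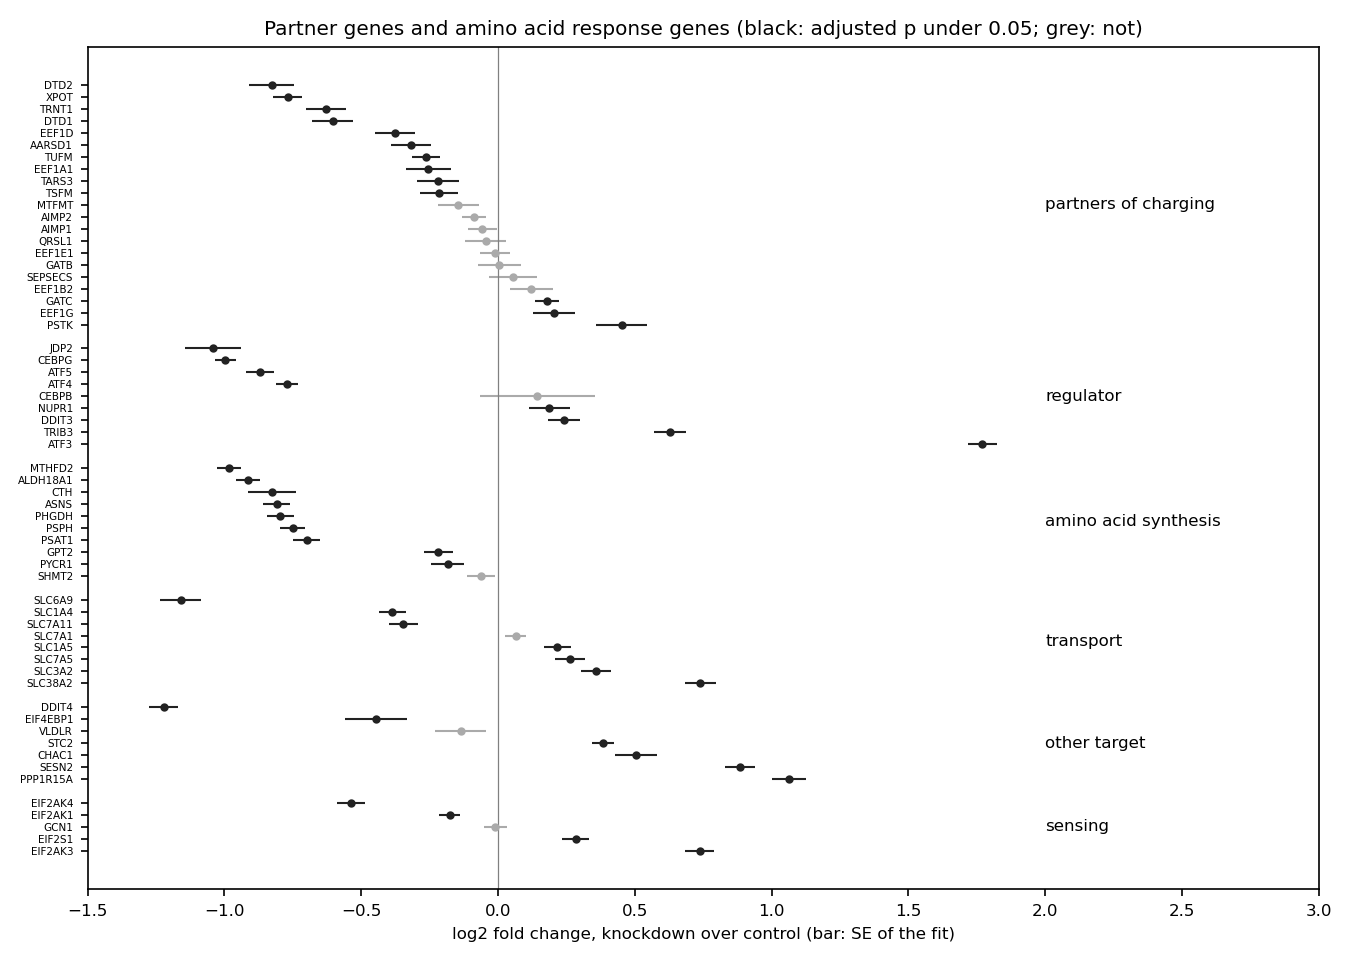
Log2 fold change (knockdown over control) with the SE of the edgeR fit for 21 partner genes and 39 amino acid response genes, grouped by role (black, adjusted p under 0.05; grey, not). The synthesis enzymes lie left of 0 throughout, whereas regulators, transporters and other targets lie on both sides.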

How the data were processed

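RNA-seq of 6 PANC-1 libraries was used. Per the submitters' processing notes, the authors aligned reads with GSNAP to GRCh38. For its version, the annotation and the strand setting, nothing is given in the sources used here. Per the file headers, the deposited files hold the count of uniquely aligned reads per gene model and RPKM values that the authors had adjusted with size factors. Symbols and coordinates came from RefSeq (GRCh38.p14), which matched 27814 of 30727 gene IDs. Strands of neighbouring genes came from GENCODE.

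Groups follow the siRNA label; the labels number no replicates, so the replicate numbers follow accession order and only name libraries. Counts were filtered with filterByExpr (minimum count 10, total 15), scaled by TMM and tested with edgeR 4.0.16 (glmQLFit, glmQLFTest, two-sided) in R 4.3.3. Benjamini-Hochberg adjustment ran over all 15190 genes tested, with a threshold of 0.05. CPM are TMM-scaled. Pairs used log2(CPM + 1) and exact permutation. The test was tried on simulated counts in which few genes changed. That setting differs from these data, where most genes pass, so it does not check the test here. Alternatives used DESeq2 1.42.0, limma 3.58.1, other scalings and filters, glmTreat at 1.5-fold and each library left out; scaling by total count and sums without the highest gene were chosen after seeing the data.

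The members, lists and tests were chosen with earlier results of these data known. All members are counted, and 2 of them are not reported here by name or drawn; values in every library are given for the 5 largest rises and falls in each compartment, WARS1, HARS1 and HARS2. From the other lists the 4 smallest p in each direction are named, with ATF4 and the scaffold genes; further list members named were chosen after their values were seen.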

Additional observations from a re-analysis of the deposited data

How the results depend on the processing

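No paired analysis was possible because the labels give no replicate numbers. No synthetase that passed changed direction under any alternative, and the counts of members were within 1.5 times of those reported under the other scalings, filters, DESeq2 and limma-voom, with 17 lower and 2 higher cytosolic genes under each. Tested against a 1.5-fold change, 1 cytosolic gene was lower and 0 were higher, 0 mitochondrial genes were lower and 0 higher, 13 amino acid response genes were lower and 5 higher, 2 partner genes were lower and 0 higher, and 2998 of all genes passed; KMT5C kept its log2 fold change of −0.72 but did not pass (adjusted p = 0.305). Leaving out each library in turn gave 16 to 17 lower and 2 higher cytosolic genes, 8 to 11 lower and 1 to 3 higher mitochondrial genes, 19 to 20 lower and 13 to 15 higher amino acid response genes, 8 to 12 lower and 2 to 4 higher partner genes, and 9184 to 11277 of all genes; the medians ran from −0.39 to −0.33 (cytosolic) and −0.15 to −0.13 (mitochondrial), and KMT5C from −0.88 to −0.50. The single higher mitochondrial gene without any library but control replicate 3 was RARS2. The cause of these losses was not tested.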

Other observations

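Besides the histidine pair, 10 further synthetase genes have a protein-coding gene on the opposite strand whose annotated start lies within 1000 bases of their own, with both genes tested; this definition of neighbours was chosen after their values were seen. Over all 11 such pairs, both genes fell in 2, both rose in 1, they passed in opposite directions in 2, and in 6 at least 1 gene did not pass. Among all genes tested 34.2% fell and 33.1% rose, and whether neighbours move together more often than other genes was not tested. WARS1 fell with WDR25 (−0.33, SE 0.120) and YARS1 with S100PBP (−0.44, SE 0.0728), while RARS2 rose with ORC3, a subunit of the origin recognition complex (0.31, SE 0.0561). CARS2 fell while ING1, a chromatin reader, rose (0.75, SE 0.0862), and SARS2 rose while MRPS12, a protein of the mitochondrial ribosome, fell (−0.34, SE 0.0765). KARS1 fell while TERF2IP, a telomere protein that starts 108 bases away, stood at 0.02 (SE 0.0658, edgeR adjusted p = 0.796). The YARS1 and S100PBP gene models overlap by 797 bases and those of CARS2 and ING1 by 900, and reads there cannot be assigned by strand.

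MARS1 and DDIT3, which encodes the stress factor CHOP, overlap over 65 bases at their ends. MARS1 fell by 0.46 on the log2 scale while DDIT3 rose by 0.24 (SE 0.0577, edgeR adjusted p = 0.00334).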
